A study of Mus musculus with 22 samples.

Results

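Interstitial telomeric tracts are runs of the telomeric hexamer that lie inside chromosomes rather than at their ends. The tracts described here were all runs of at least 4 perfect consecutive copies of TTAGGG, on either strand, in chromosomes 1 to 19 and X of the mouse genome build GRCm38. Of 358 such runs, 35 lay within 1 kb of the last sequenced base of a chromosome and were left out, and the other 323 were kept. The rule used the genome sequence alone, so none of the measurements below chose a tract.

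TERRA is the RNA transcribed from subtelomeres into the telomeric repeat, and it carries the G-rich repeat that these tracts also hold. ATRX is a chromatin remodeller that, with its partner DAXX, places a replacement form of histone H3 at telomeres and other repeats, and it is known to bind G-rich tandem repeats. Trimethylated lysine 9 of histone H3 (H3K9me3) is the mark of constitutive heterochromatin, and the G-rich telomeric strand can fold into a G-quadruplex (G4), a stack of guanines held by Hoogsteen bonds that the BG4 antibody recognises. ATAC-seq inserts sequencing adapters with a transposase and so reads out accessible DNA.

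All libraries came from mouse embryonic stem cells of a CAST/Ei x 129/Sv/Jae hybrid background, grown in serum medium with LIF. Cells received either a scramble LNA gapmer (scramble KD) or an LNA gapmer against TERRA (TERRA KD) by nucleofection and were collected after 12 h. Untreated cells were not among the groups used here. ATRX, H3K9me3, G4 and ATAC libraries were each made from 2 samples per condition, and the labels do not say whether these came from separate cultures. The study's text calls the ATRX and G4 replicates biological, and the p-values below measure the spread between these samples. GRCm38 is the sequence of another strain, so the tracts are those of the reference and not of the CAST/Ei or 129/Sv/Jae chromosomes.

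Over all 323 tracts, copy number ran from 4 to 44 with a median of 7, which is a length of 24 to 264 bp with a median of 42 bp. The shortest class was the most common, with 65 tracts of 4 copies, and only 3 tracts exceeded 15 copies. These 3 lay at chrX:170758243-170758506 with 44 copies, on chromosome 14 with 24 copies and on chromosome 1 with 18 copies. The G-rich strand was the plus strand in 150 tracts and the minus strand in 173.

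Tracts often lay beside each other. When tracts closer than 1 kb were joined, the 323 tracts formed 245 loci, and 117 tracts lay in the 39 loci that held more than 1 tract. Such neighbours can share a peak, so tracts were not independent of each other and the binomial intervals given below, which cover counting error only, are narrower than intervals over loci would be. A median of 3 further hexamers, on either strand, lay within 300 bp of a tract, the highest number was 65, and 82 tracts had none. A 7-copy tract near Creb3l1 had 17 such hexamers, whereas the 18-copy tract and a 7-copy tract near Gm15326 had none. Only 13 tracts lay within 1 Mb of the last sequenced base, and 4 lay within 100 kb of it.

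Peaks were taken from the lists that the authors called separately in each of the 16 libraries. Depth and peak number differed widely between libraries of the same assay. ATRX libraries held 4104486 to 15506154 tags and 7321 to 41384 peaks, H3K9me3 libraries 5435286 to 13898785 tags and 25490 to 76213 peaks, G4 libraries 2961038 to 24588605 tags and 140119 to 389434 peaks, and ATAC libraries 5976014 to 7883648 tags and 78571 to 103911 peaks. The input libraries of replicate 1 for ATRX and H3K9me3 held 3366921 and 3374834 tags, against 19735093 and 28622103 for replicate 2. A tract that no peak touched may hold reads below the threshold, and the background against which each share is read is the share of all 60937566 windows of 42 bp, the median tract length, that a peak of the same list touched.

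Counted by tract, ATRX peaks lay on most interstitial tracts in every library. In scramble KD, 200 of the 323 tracts carried an ATRX peak in replicate 1 (61.9%, 95% Clopper-Pearson interval 56.4 to 67.2) and 177 in replicate 2 (54.8%, 49.2 to 60.3). In TERRA KD, 272 carried one in replicate 1 (84.2%, 79.8 to 88.0) and 191 in replicate 2 (59.1%, 53.6 to 64.5). TERRA KD replicate 1 stood apart, while TERRA KD replicate 2 lay between the scramble KD libraries. The share of all windows under an ATRX peak was 0.149% and 0.331% in the scramble KD libraries and 0.948% and 0.554% in the TERRA KD libraries, so the tracts were covered 88.8 to 414 times as often as the genome. The mean difference between conditions was 13.3 percentage points (two-sided exact permutation test, p = 0.667), and it ran from 0.774 points without TERRA KD replicate 1 to 25.9 points without TERRA KD replicate 2. With only peaks of a −log10 p of at least 5 it was 26.9 points, and the TERRA KD libraries, 76.5% and 42.7%, then lay above those of scramble KD, 31.6% and 33.7% (exact permutation p = 0.333). With 2 samples per condition the smallest p that this test can give is 0.333, so no comparison of conditions here could pass 0.05.

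H3K9me3 peaks were listed on a share of tracts that differed more between replicates than between conditions. Scramble KD gave 23 tracts in replicate 1 (7.12%, 4.57 to 10.5) and 206 in replicate 2 (63.8%, 58.3 to 69.0). TERRA KD gave 124 in replicate 1 (38.4%, 33.1 to 43.9) and 222 in replicate 2 (68.7%, 63.4 to 73.7). Both replicate 2 libraries were high and both replicate 1 libraries lower, and TERRA KD was above scramble KD within each replicate number. The windows under an H3K9me3 peak made up 3.35% and 1.85% in the scramble KD libraries and 4.2% and 2.03% in the TERRA KD libraries, so that the tracts exceeded the background 2.12-fold in scramble KD replicate 1 and 34.6-fold in scramble KD replicate 2. The mean difference was 18.1 points (exact permutation p = 0.667), and it ran from −10.2 points without scramble KD replicate 1 to 46.4 without scramble KD replicate 2, with 2.94 and 33.3 points when TERRA KD replicate 2 or 1 was left out. The peaks called on tracts in scramble KD replicate 1 had a median −log10 p of 2.96, against 10.5 in scramble KD replicate 2, and its input was the shallower of the pair, with 3366921 tags against 19735093. The part that input depth played was not tested.

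G4 peaks split in the same way by replicate, but in the opposite order. In replicate 1, 189 tracts carried a G4 peak in scramble KD and 189 in TERRA KD (58.5%, 52.9 to 63.9, in both), and 165 of these tracts were the same. In replicate 2, scramble KD gave 44 tracts with one (13.6%, 10.1 to 17.9) and TERRA KD gave 21 (6.5%, 4.07 to 9.77). Replicate 1 exceeded its window background of 3.69% in scramble KD and 5.35% in TERRA KD, whereas both replicate 2 libraries lay below theirs, which were 16.3% and 8.28%. The mean difference between conditions was −3.56 points (exact permutation p = 1.0). It was 18.9 and −26.0 points without scramble KD replicate 1 or 2, and −29.6 and 22.4 points without TERRA KD replicate 1 or 2. The scramble KD libraries held 2961038 tags in replicate 1 and 24588605 in replicate 2, and both were called against the same input. Since the G4 replicates disagreed on whether tracts were enriched at all, the G4 results below are given for each library.

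ATAC peaks were listed on 147 tracts in scramble KD replicate 1 (45.5%, 40.0 to 51.1) and on 160 in replicate 2 (49.5%, 44.0 to 55.1). TERRA KD gave 180 tracts in replicate 1 (55.7%, 50.1 to 61.2) and 194 in replicate 2 (60.1%, 54.5 to 65.4). With the peak lists as deposited, ATAC was the only assay of the 4 in which both TERRA KD libraries lay above both scramble KD libraries. The windows under an ATAC peak were 1.89% and 2.41% in the scramble KD libraries and 2.14% and 2.63% in the TERRA KD libraries, which overlap between the conditions. Within each replicate number the windows too were higher in TERRA KD. The tracts were covered 24.1 and 20.5 times as often as the windows in scramble KD and 26.1 and 22.8 times in TERRA KD. These ratios also overlap between the conditions. The mean difference was 10.4 points (exact permutation p = 0.333, the smallest possible), with 10.2 points in replicate 1 and 10.5 in replicate 2. It was 9.91 points when the same number of top-ranked peaks was taken from both conditions.

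**Figure D1:**
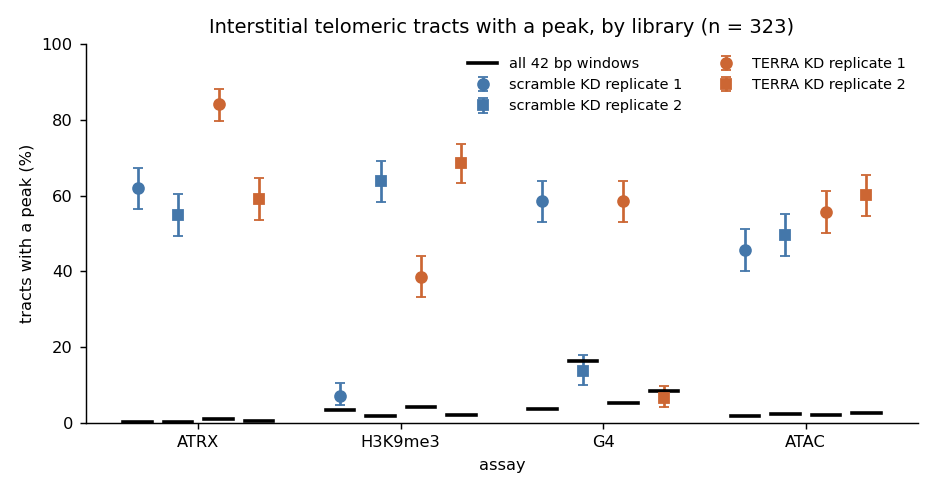
Share of the 323 interstitial tracts with a peak (y axis, percent) in each library of each assay (x axis); points are libraries, bars are 95% Clopper-Pearson intervals over tracts, and black lines are the share of all 42 bp windows under a peak of the same list. ATAC is the assay in which both TERRA KD libraries, 55.7% and 60.1%, lie above both scramble KD libraries, 45.5% and 49.5%, and the G4 libraries of replicate 2, 13.6% and 6.5%, lie below their windows.

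As a set, the telomeric tracts carried ATRX, H3K9me3 and ATAC peaks more often than tandem runs of other hexamers. The same chromosomes held 39884 perfect runs of at least 4 copies of 277 other hexamer units, of which 9463 had a run of GGG on either strand. ATRX peaks lay on 0.251% to 1.52% of these other runs, H3K9me3 peaks on 1.36% to 2.41%, and ATAC peaks on 1.28% to 2.1%. G4 peaks lay on 21.4% to 31.2% of them and on 25.8% to 42% of the runs with GGG. In replicate 1 more telomeric tracts than runs with GGG carried a G4 peak, 58.5% against 34.3% in scramble KD and 58.5% against 31.6% in TERRA KD. In replicate 2 fewer did, 13.6% against 42% in scramble KD and 6.5% against 25.8% in TERRA KD. These shares are descriptions and were not tested, since runs of the same unit share sequence. The sets were not matched for copies or for runs nearby. Of 39 telomeric tracts of 4 to 5 copies with at most 3 other hexamers within 300 bp, 0 carried an ATAC peak in any library.

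Copy number ordered the tracts in every ATRX and ATAC library except scramble KD replicate 1 of ATRX. In TERRA KD replicate 1, an ATRX peak lay on 9.54% of 1132 interstitial runs of 2 copies and on 35.6% of 191 runs of 3 copies, which are shorter than the rule asks. The share went on to 64.2% of the 109 tracts of 4 to 5 copies, 87.8% of the 98 of 6 to 8 copies, and all 75 of 9 to 11 and all 41 of 12 or more. In TERRA KD replicate 2 the corresponding shares were 4.95%, 20.4%, 31.2%, 54.1%, 84.0% and 100%. Scramble KD replicate 2 went from 3.98% to 97.6%, and scramble KD replicate 1 from 6.1% to 82.7% at 9 to 11 copies and then 73.2% at 12 or more, where 11 of the 41 longest tracts had no listed peak.

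ATAC peaks followed the same order, from 6.71% to 8.3% at 2 copies to 78.0%, 82.9%, 90.2% and 95.1% at 12 or more copies in scramble KD replicates 1 and 2 and TERRA KD replicates 1 and 2. The gap between the conditions was widest at 9 to 11 copies, with 46.7% and 56.0% in the scramble KD libraries and 66.7% and 76.0% in the TERRA KD libraries. At 4 to 5 copies the 4 libraries lay between 35.8% and 43.1%. H3K9me3 in replicate 2 went from 4.77% to 97.6% in scramble KD and from 6.98% to 100% in TERRA KD. In TERRA KD replicate 1 it levelled at 48.8%, and in scramble KD replicate 1 it stayed between 4.59% and 12.0% in every class. G4 in replicate 1 reached 92.7% of the longest tracts in both conditions, but in replicate 2 it was 12.2% and 4.88% there, below the 20.7% and 10.1% of runs of 2 copies.

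**Figure D2:**
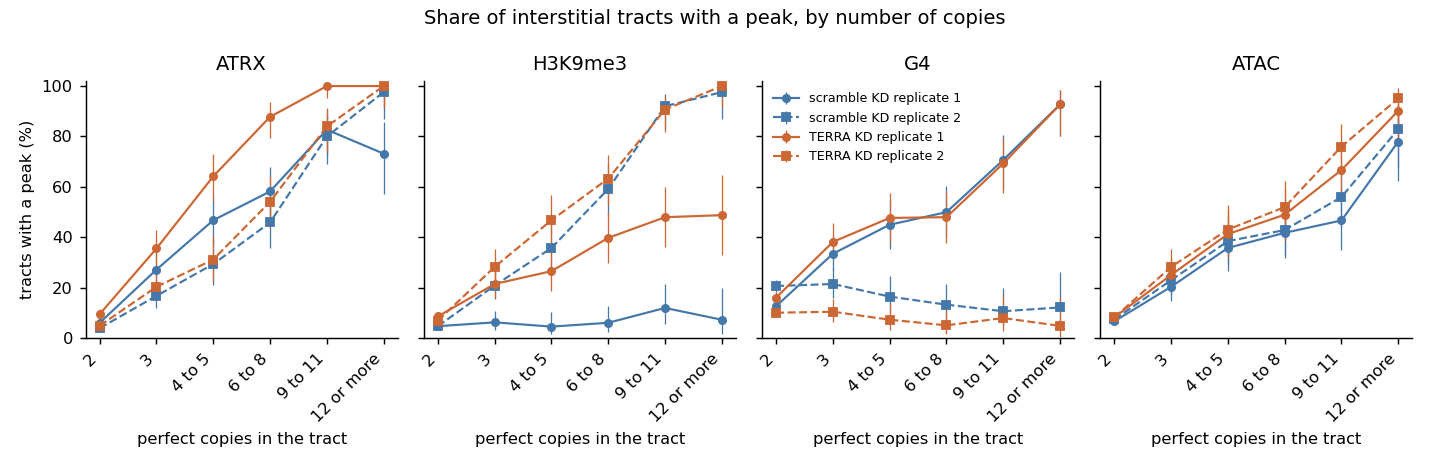
Share of interstitial runs with a peak (y axis, percent) by the number of perfect copies in the run (x axis), 1 panel per assay and 1 line per library; bars are 95% Clopper-Pearson intervals. ATRX and ATAC climb with copies in both conditions, apart from the last class in scramble KD replicate 1 of ATRX, with ATAC reaching 78.0% to 95.1%, while G4 climbs in replicate 1 to 92.7% and stays at or below 21.5% in replicate 2; runs of 2 and 3 copies are shown for comparison and are not among the 323 tracts.

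Short tracts carried ATRX and ATAC peaks mostly where further hexamers lay nearby. Of the 109 tracts of 4 to 5 copies, 39 had at most 3 other hexamers within 300 bp and 70 had 4 or more. ATAC peaks lay on 0 of the 39 in all 4 libraries, and on 55.7%, 60.0%, 64.3% and 67.1% of the 70 in scramble KD replicates 1 and 2 and TERRA KD replicates 1 and 2. For ATRX the same libraries gave 2, 0, 9 and 1 of the 39 against 49, 32, 61 and 33 of the 70. Among the isolated short runs of these 2 assays, TERRA KD replicate 1 of ATRX thus listed the most, 9 of 39. H3K9me3 gave 2, 2, 1 and 2 of the 39 against 3, 37, 28 and 49 of the 70, so that scramble KD replicate 1 was low in both classes. G4 in replicate 1 gave 1 of the 39 in scramble KD and 2 in TERRA KD, against 48 and 50 of the 70. In replicate 2, G4 gave 5 of the 39 (12.8%) against 13 of the 70 (18.6%) in scramble KD, and 4 of the 39 (10.3%) against 4 of the 70 (5.71%) in TERRA KD. The G4 lists of replicate 2 thus did not share the split by neighbours seen in replicate 1.

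Long tracts carried ATRX and ATAC peaks without such neighbours. Among the 46 tracts of 9 or more copies with no other hexamer within 300 bp, an ATRX peak lay on 76.1% and 91.3% in the scramble KD libraries and on 100% and 91.3% in the TERRA KD libraries. H3K9me3 peaks lay on 45 of the 46 in both replicate 2 libraries, but in replicate 1 on 4 in scramble KD and 21 in TERRA KD. G4 peaks lay on 31 and 35 of the 46 in scramble KD and TERRA KD replicate 1, and on 7 and 2 in replicate 2. ATAC peaks lay on 54.3% and 65.2% in the scramble KD libraries and on 73.9% and 80.4% in the TERRA KD libraries, where the conditions again did not overlap. At 6 to 8 copies, ATAC peaks lay on 0, 0, 1 and 0 of the 21 tracts without other hexamers and on 40, 40, 42 and 42 of the 49 with 4 or more, in the same order of libraries.

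**Figure D3:**
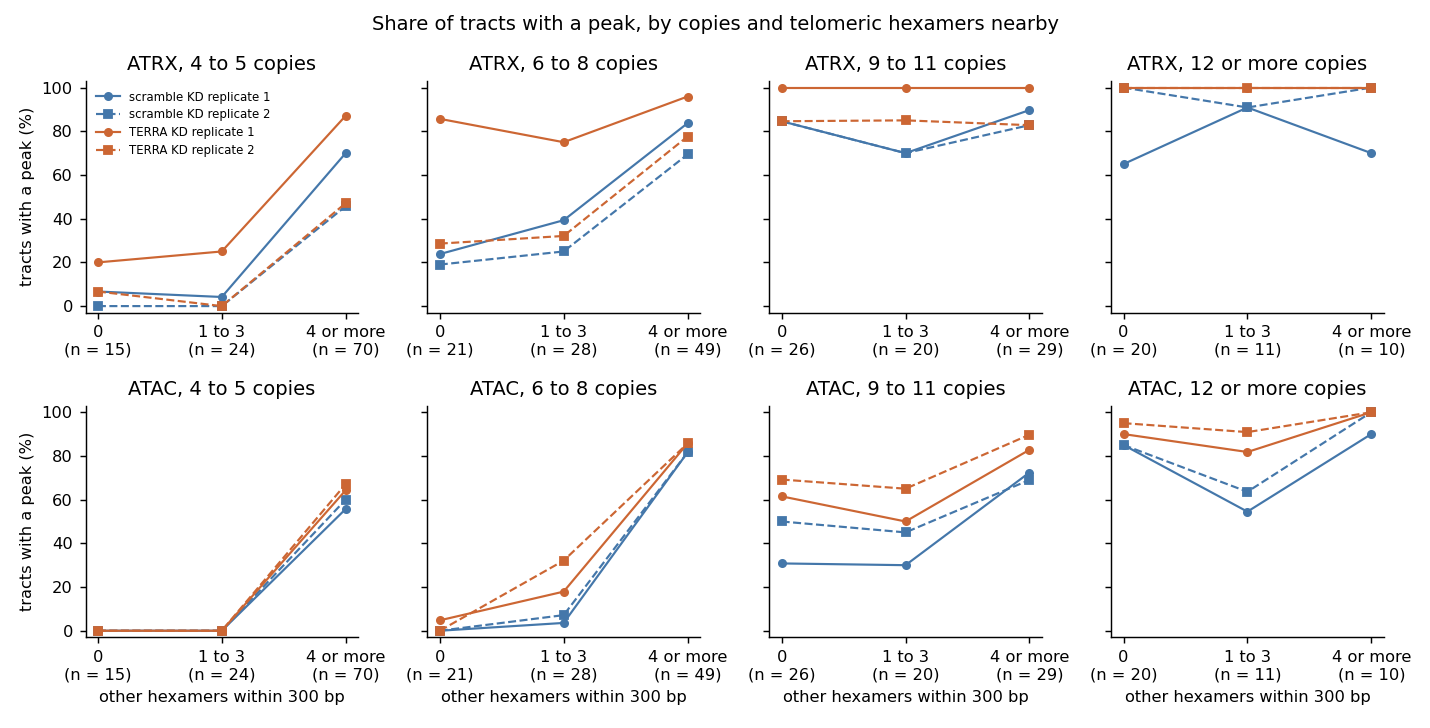
Share of tracts with an ATRX peak (upper row) or an ATAC peak (lower row) in percent, by the number of other telomeric hexamers within 300 bp (x axis, with the number of tracts), in panels by copies; lines join the values of a library. Tracts of 4 to 5 copies with at most 3 other hexamers carry no ATAC peak in any library, and with 4 or more they carry one in 55.7% to 67.1%.

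The same tracts recurred in the ATRX and ATAC lists. An ATRX peak was listed in all 4 libraries on 144 tracts (44.6%), against 0.00354% of all windows, and in no library on 49 tracts, none of which had more than 8 copies. An ATAC peak was listed in all 4 on 137 tracts (42.4%), against 1.24% of windows. For H3K9me3 the number was 16 tracts (4.95%, windows 0.497%), limited by scramble KD replicate 1, and for G4 it was 2 tracts (0.619%, windows 1.02%). Of the 200 ATRX tracts of scramble KD replicate 1, every one also carried a peak in TERRA KD replicate 1, which listed 72 more. In replicate 2, 166 were shared, 25 were listed in TERRA KD only and 11 in scramble KD only. The TERRA KD lists were the longer, with 41384 against 7321 ATRX peaks in replicate 1 and 21718 against 13652 in replicate 2. These within-replicate counts were not made over windows.

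Few tracts separated the conditions in both replicates. ATAC peaks were listed in both TERRA KD libraries and neither scramble KD library on 12 tracts (3.72%, windows 0.14%), and on none in the opposite direction (windows 0.0743%). The numbers were 4 and 0 for ATRX (1.24%, windows 0.0439% and 0.0014%), 6 and 0 for H3K9me3 (1.86%, windows 0.158% and 0.0546%) and 3 and 2 for G4 (0.929% and 0.619%, windows 0.138% and 0.29%). Within replicate 1, 34 tracts had an ATAC peak in TERRA KD only and 1 in scramble KD only. Within replicate 2, the numbers were 37 and 3. The TERRA KD list was the longer in both, with 86535 against 78571 ATAC peaks in replicate 1 and 103911 against 96994 in replicate 2. The same counts within a replicate were not made over windows, so these numbers have no background beside them.

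Peak strength was compared on the tracts listed in all 4 libraries of an assay. For ATAC, 137 tracts had a median pileup of 21.0 and 25.0 fragments at the summit in the scramble KD libraries and 31.0 and 32.0 in the TERRA KD libraries, or 3.51 and 3.33 against 4.69 and 4.06 per 1000000 tags of the library. Within each replicate number the scaled pileup was higher in TERRA KD on 117 of the 137 tracts, with a median log2 ratio of 0.45 in replicate 1 and 0.32 in replicate 2. The replicate numbers were not taken to pair the samples, and tracts are not replicates of a condition. For ATRX, 144 tracts had a median of 7.72 and 2.29 tags per 1000000 in the scramble KD libraries and 19.4 and 2.55 in the TERRA KD libraries. All 144 were higher in TERRA KD in replicate 1, with a median log2 ratio of 1.27, and 107 were in replicate 2, with 0.14. The ATRX ratio thus rested on TERRA KD replicate 1, the shallowest ATRX library, whereas the ATAC ratio was similar in both replicates. Tracts that passed in all 4 libraries are the stronger ones, so these medians do not describe all 323 tracts. Neighbouring tracts under a shared peak count more than once here. With 1 tract kept per locus, 75 of the 137 and 92 of the 144 remained. The same ratio was not computed over all peaks of the lists, so whether it was particular to the tracts was not tested.

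Peaks centred on the tracts. The summit lay within 150 bp of the tract centre in 92.0% to 94.1% of the tracts with an ATRX peak and in 81.6% to 90.0% of those with an ATAC peak. For G4 this was 87.3% and 86.2% in replicate 1, but 22.7% and 52.4% in replicate 2. At 1000 bp on the 5′ side of the tract centre, an ATRX peak covered 0% to 3.41% of the tracts, and an ATAC peak 0.31% to 0.929%. Peaks on tracts were also among the strongest of the ATRX lists: their median rank lay in the top 0.345% to 2.41% of all ATRX peaks, against 16.9% to 20.4% for ATAC.

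ATAC peaks were lopsided along the G-rich strand in scramble KD and less so in TERRA KD. Positions are given from the tract centre, with the 3′ side being the side that the G-rich strand runs towards. At 200 bp on the 5′ side, an ATAC peak covered 38.7% and 43.0% of the tracts in the scramble KD libraries and 47.7% and 50.8% in the TERRA KD libraries. At 200 bp on the 3′ side, it covered 16.4% and 26.6% in the scramble KD libraries and 41.5% and 44.0% in the TERRA KD libraries. The difference between conditions was 8.4 points on the 5′ side and 21.2 points on the 3′ side, both with an exact permutation p of 0.333, the smallest possible, and the difference between the sides was not tested.

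The 137 tracts with an ATAC peak in all 4 libraries had the same asymmetry. Beyond the 5′ end of the perfect run the peak reached a median of 216 and 203 bp in scramble KD and 219 and 216 bp in TERRA KD. Beyond the 3′ end it reached 115 and 182 bp in scramble KD and 205 and 207 bp in TERRA KD. The 5′ reach was the longer on 105 and 100 of the 137 tracts in the scramble KD libraries and on 85 and 83 in the TERRA KD libraries. With a single tract kept per locus, 69 and 62 of 75 tracts reached farther 5′ in the scramble KD libraries and 54 and 51 in the TERRA KD libraries. Tracts on the plus strand (40, 37, 30 and 28 of 54) and on the minus strand (65, 63, 55 and 55 of 83) showed the same order of libraries. On the 144 tracts with an ATRX peak in all 4 libraries, the 5′ reach was longer on 81 and 84 in the scramble KD libraries and on 83 and 75 in the TERRA KD libraries.

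**Figure D4:**
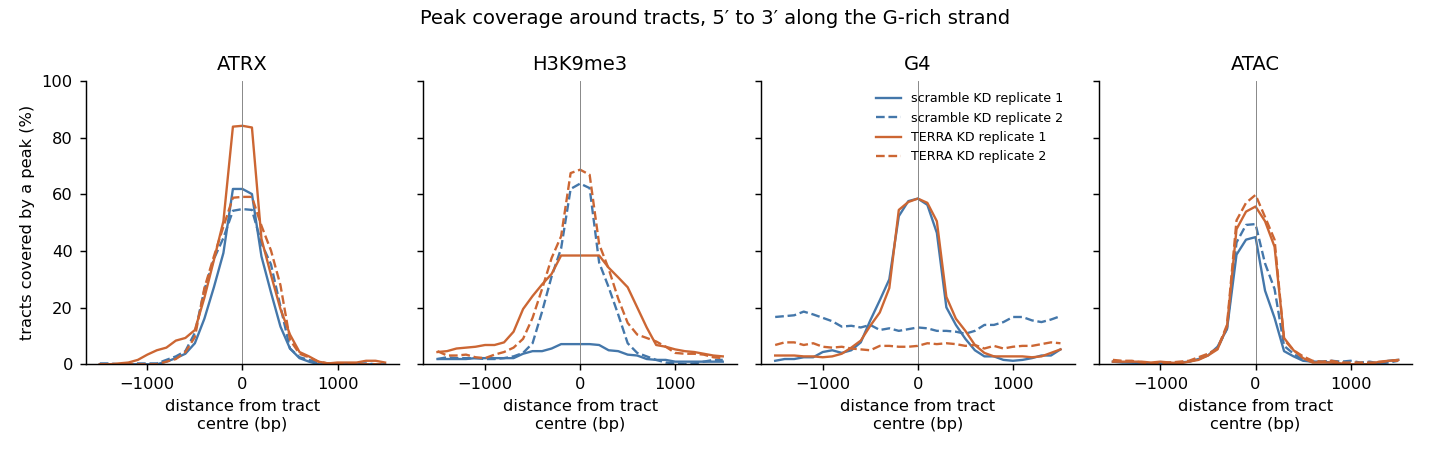
Share of the 323 tracts covered by a peak (y axis, percent) at each distance from the tract centre (x axis, bp, 5′ to 3′ along the G-rich strand), 1 panel per assay and 1 line per library. ATAC coverage at 200 bp on the 3′ side is 16.4% and 26.6% in the scramble KD libraries and 41.5% and 44.0% in the TERRA KD libraries, and the G4 lines of replicate 2 show no rise at the tract.

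ATRX, H3K9me3 and ATAC peaks often lay on the same tracts, whereas G4 peaks did so in replicate 1 only. In TERRA KD replicate 1, all 180 tracts with an ATAC peak also had an ATRX peak, and 122 of the 124 with an H3K9me3 peak did. Of all 323 tracts, 84.2% had an ATRX peak in that library. In TERRA KD replicate 2, 185 of the 194 tracts with an ATAC peak carried an H3K9me3 peak, 95.4% of the former and 83.3% of the latter. In scramble KD replicate 2 the overlap was 144 tracts, 90.0% of those with an ATAC peak and 69.9% of those with an H3K9me3 peak. In TERRA KD replicate 1 it was 56.7% of the 180 tracts with an ATAC peak and 82.3% of the 124 with an H3K9me3 peak. Scramble KD replicate 1 had 8 such tracts, 5.44% of its 147 with an ATAC peak and 34.8% of its 23 with an H3K9me3 peak. The heterochromatin mark and the readout of accessible DNA were thus listed on many of the same tracts in 3 of the 4 pairs of lists, and on few in scramble KD replicate 1. In all, 100 tracts had both an ATRX and an ATAC peak in all 4 libraries, and 63 of these also had an H3K9me3 peak in both TERRA KD libraries. Among tracts with an ATAC peak, a G4 peak lay on 94.6% and 88.3% in scramble KD and TERRA KD replicate 1, against 58.5% of all tracts. In replicate 2 it lay on 12.5% and 4.12%, against 13.6% and 6.5% of all tracts. Long tracts carried more ATRX and ATAC peaks, so these overlaps are descriptions.

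Chromosomes differed in how many tracts they held and in how many of these carried peaks. Chromosome 13 held the most, 29 tracts in 16 loci, and chromosome 15 the fewest, 8 tracts in 7 loci, which is 0.248 and 0.0795 tracts per Mb. The mean share of tracts with an ATRX peak over the 4 libraries ran from 30.8% on chromosome 7 to 83.8% on chromosome 14, and that with an ATAC peak from 13.5% on chromosome 7 to 70.7% on chromosome 13. Chromosome 7 held 13 tracts, of which 2, 4, 6 and 4 had an ATRX peak and 0, 1, 3 and 3 an ATAC peak in scramble KD replicates 1 and 2 and TERRA KD replicates 1 and 2. Its tracts were short, with a median of 5 copies, 7 of 13 having 4 or 5 copies. Of these 13, 38.5% had 4 or more other hexamers nearby, against 69.0% on chromosome 13. Chromosomes 8 and 19 also had a median of 5 copies, with mean ATRX shares of 63.2% and 65.0% and mean ATAC shares of 52.6% and 25.0%. On chromosome 15, 25.0% of tracts had such neighbours, the lowest share, and the mean ATRX and ATAC shares were 71.9% and 37.5%. The part of copies and neighbours in these differences was not tested. Chromosome 14 had a median of 10 copies, the highest of all, and 12 of its 17 tracts had 9 or more.

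Chromosomes 6 and 8 held more peaks of all 4 assays for their length than the other chromosomes. Their tracts showed no such excess of ATRX or H3K9me3 peaks. They held 6.37 to 26.8 ATRX peaks per Mb against 2.41 to 14.8 elsewhere, and 46.6 and 50.1 H3K9me3 peaks per Mb in replicate 2 against 27.0 and 27.2. On their 39 tracts, ATRX peaks were listed on 53.8% and 56.4% in the scramble KD libraries and on 74.4% and 56.4% in the TERRA KD libraries, against 63.0%, 54.6%, 85.6% and 59.5% on the 284 tracts of the other chromosomes. For H3K9me3 the same libraries gave 2.56%, 66.7%, 15.4% and 66.7% against 7.75%, 63.4%, 41.5% and 69.0%. Tracts on chromosomes 6 and 8 were short, with medians of 5.5 and 5 copies, and the shares were not matched for copies. The X chromosome held 12 tracts, 4, 7, 9 and 6 of which carried an ATRX peak in the same order of libraries.

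**Figure D5:**
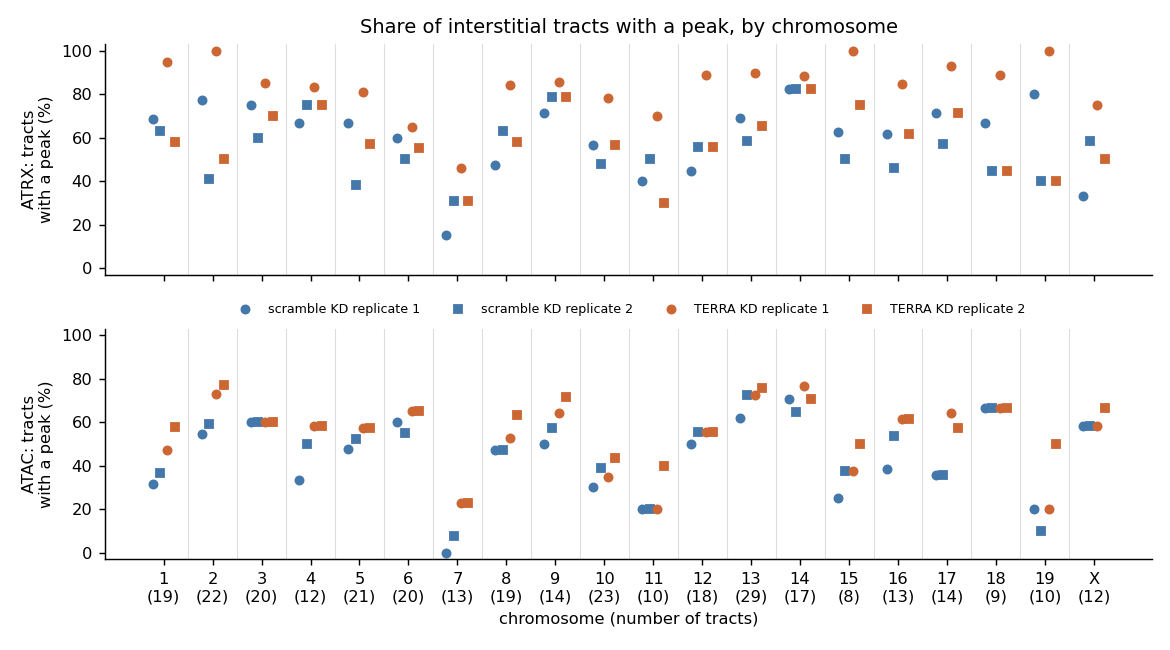
Share of the tracts of each chromosome (x axis, with the number of tracts) that carried an ATRX peak (upper panel) or an ATAC peak (lower panel) in percent, 1 point per library. Chromosome 7 is lowest in the mean over libraries, 30.8% for ATRX and 13.5% for ATAC, and each chromosome rests on 8 to 29 tracts.

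By position, 196 tracts were intergenic, 125 lay in introns and 2 in exons of curated RefSeq transcripts, and a single tract lay within 1 kb of a transcription start. ATRX peaks lay on 60.7% and 57.1% of intergenic and 63.2% and 50.4% of intronic tracts in scramble KD, and on 83.7% and 61.7% against 84.8% and 54.4% in TERRA KD. ATAC peaks lay on 46.4% and 49.5% against 44.0% and 48.8%, and on 56.6% and 61.2% against 53.6% and 57.6%. The ATAC shares of intergenic and intronic tracts lay close to each other in each library, while ATRX in replicate 2 was listed more often on intergenic tracts. Within genes, the G-rich hexamer lay on the strand opposite to the transcript's in 80 tracts and on the same strand in 46.

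Tracts whose G-rich strand was the minus strand carried more peaks than those on the plus strand in all 12 libraries of ATRX, H3K9me3 and ATAC. For ATRX the shares were 67.1%, 64.2%, 90.2% and 65.9% of the 173 minus strand tracts against 56.0%, 44.0%, 77.3% and 51.3% of the 150 plus strand tracts, in scramble KD replicates 1 and 2 and TERRA KD replicates 1 and 2. For ATAC they were 52.0%, 55.5%, 63.0% and 67.1% against 38.0%, 42.7%, 47.3% and 52.0%. Both strands had a median of 7 copies, and 4 or more other hexamers lay near 48.7% of plus strand and 49.1% of minus strand tracts. Tracts of 9 or more copies made up 34.0% of plus strand and 37.6% of minus strand tracts, and the shares were not matched for copies. With the longest tract of each locus alone, ATAC peaks lay on 40.8%, 46.9%, 53.8% and 58.5% of 130 minus strand tracts and on 25.2%, 28.7%, 34.8% and 39.1% of 115 plus strand tracts. This pattern was noticed in the data and was not tested, since the genome gives no replicate of a tract.

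The 44-copy and 24-copy tracts had some of the highest ATAC peaks of their lists. Those of the 18-copy tract ranked only 26197, 18155, 14740 and 7977 in scramble KD replicates 1 and 2 and TERRA KD replicates 1 and 2. The 44-copy tract of the X chromosome lay 122793 bp from the last sequenced base and 80189 bp from Asmt, which encodes the last enzyme of melatonin synthesis. Its ATAC pileup was 121 and 147 fragments in the scramble KD libraries and 173 and 182 in the TERRA KD libraries, which ranked 25, 21, 14 and 17 among all ATAC peaks of the 4 lists. It carried no ATRX peak in scramble KD replicate 1, and 399, 536 and 411 ATRX tags in scramble KD replicate 2 and TERRA KD replicates 1 and 2, with fold enrichments over the local background of 3.63, 7.98 and 5.41. Its H3K9me3 peaks of replicate 2 ranked 9 in scramble KD and 12 in TERRA KD.

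The 24-copy tract, 46833 bp from the uncharacterised gene 4930529K09Rik, had ATAC pileups of 51, 64, 78 and 78 in scramble KD replicates 1 and 2 and TERRA KD replicates 1 and 2, with no overlap between the conditions before scaling to depth. It too had no ATRX peak in scramble KD replicate 1, and ATRX fold enrichments of 7.79, 7.38 and 13.36 in the other 3. The 18-copy tract lay in an intron of Hsd11b1, which encodes the enzyme that regenerates active glucocorticoid. It carried ATRX peaks in all 4 libraries, with fold enrichments of 31.0, 19.4, 39.0 and 14.0, in which the replicates of a condition differed more than the conditions did. The tracts of 15 copies in an intron of Greb1, a hormone-responsive gene, and 105284 bp from Isl1, which encodes a LIM-homeodomain factor, also lacked an ATRX peak in scramble KD replicate 1 only.

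Of the 4 tracts with an ATRX peak in both TERRA KD libraries and neither scramble KD library, the 9-copy tract in an intron of Gzmk, which encodes a granzyme, had fold enrichments of 44.3 and 5.68. The tract near Creb3l1 had 31.5 and 4.88. The 9-copy tract nearest 1700049L16Rik had 29.3 and 5.68, and the 8-copy tract nearest Cdh12, a cadherin gene, 41.2 and 4.26. Across tracts of all classes the ATRX fold enrichments of TERRA KD replicate 1 were high, with a median of 42.3 against 9.12 in replicate 2. The size was thus shared by the tracts with a peak in that library and not particular to these 4. Over all ATRX peaks of the lists the medians were 9.5 in TERRA KD replicate 1 and 4.26 in replicate 2. The tracts near Creb3l1 and in Gzmk carried ATAC peaks in all 4 libraries, the other two in none.

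Of the 12 tracts with ATAC peaks in TERRA KD only, the 6 with the most copies had low enrichments. The 14-copy tract in an intron of Bbox1, which encodes the last enzyme of carnitine synthesis, had fold enrichments of 4.62 and 6.63, and the 13-copy tract nearest Cntnap5b had 5.13 and 8.05. The 12-copy tract nearest Epha3, an ephrin receptor gene, had 3.59 and 3.31 and also carried an H3K9me3 peak in TERRA KD only, of 45.8 and 21.8. Tracts nearest the adhesion gene Cadm1, Gdap2 and Anxa10 had 4.11 and 4.73, 3.59 and 7.1, and 3.08 and 5.21. The median on all tracts with an ATAC peak was 9.51 and 9.47 in TERRA KD, above the values of these 6 tracts.

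The 6 tracts with an H3K9me3 peak in TERRA KD only included both tracts of a locus in A1cf, which encodes a cofactor of the Apobec1 editing enzyme. Both lay under the same peak, with fold enrichments of 31.5 and 15.8. The exonic tract of Xkrx, with 9 copies at chrX:134150064-134150117, had 173 and 7.75, and the tracts nearest Epha3, 4933402J10Rik and Olfm1 made up the rest. The other exonic tract had 8 copies at chr13:93941212-93941259 in Arsb, which encodes a lysosomal sulfatase, and it carried ATRX peaks in all 4 libraries with fold enrichments of 34.8, 7.41, 80.3 and 8.52. On this tract the replicates of a condition differed more than the conditions did.

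G4 peaks marked few tracts in both replicates. In TERRA KD only, they lay on the 4-copy tract nearest Spertl, with fold enrichments of 8.27 and 6.21 and no peak of any other assay, and on 2 adjacent tracts in an intron of Efna5, an ephrin ligand gene, which shared a peak of 10.01 and 3.87. In scramble KD only, they lay in introns of Wnt7b, a Wnt ligand gene, with 10.8 and 6.13, and of Nkd1, an inhibitor of Wnt signalling, with 10.4 and 11.6. In replicate 2 the summits of these peaks lay away from the tracts, 825.5 bp from the tract in Wnt7b and 2373.5 bp from that in Nkd1, where the peak was 5849 bp wide, so these enrichments are those of the whole peak and not of the tract. G4 peaks in all 4 libraries lay on 2 tracts, chosen for description after their values were seen: the 14-copy tract near Fcrl5 and a 9-copy tract at chr1:182629852-182629905 in an intron of Capn8, a calpain gene. These 2 tracts carried peaks in 15 of the 16 lists, the most of any tract. On the tract near Fcrl5, the G4 peak of scramble KD replicate 2 was 1517 bp wide, with its summit 595.5 bp from the tract centre. In TERRA KD replicate 2 the summit lay 29.5 bp from it.

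The tract closest to a transcription start, with 6 copies and 925 bp from a start of the sodium channel gene Scn8a, carried an ATRX peak in TERRA KD replicate 1 only, G4 peaks in both replicate 2 libraries, with summits 1232.5 and 1161.5 bp from the tract, and no ATAC or H3K9me3 peak. At the other extreme, 33 tracts carried no peak of any assay in any library, and 290 carried at least 1. The longest of the 33 had 7 copies, among them tracts near Lnx1 and Gm15326 and others near Tril and Gcgr, the glucagon receptor gene. The tract near Creb3l1 also had 7 copies and carried peaks in 10 lists, with its 17 other hexamers nearby, against 2 for the tract near Lnx1 and 0 for that near Gm15326. The median tract carried peaks in 10 of the 16 lists.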

How the data were processed

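ATRX, H3K9me3, G4 and ATAC libraries, 2 per condition, were compared as peak lists. The authors trimmed reads with Trim Galore 0.5.0, aligned them with Bowtie2 2.3.4.1 at its defaults to mm10, the same assembly as GRCm38, removed duplicates and called peaks per library at a p of 0.01, with MACS 1.4.3 for ATRX and H3K9me3, 1.4.2 for G4 (each against input, shared by the G4 replicates) and 2.2.7.1 for ATAC. The deposited ChIP lists hold raw tag counts per peak, a score of −10 times log10 p, and a fold enrichment, a ratio over the local background. The deposited ATAC lists hold a pileup signal, a fold enrichment and a −log10 p. None is scaled between libraries. These defaults report 1 placement for a read that aligns to several places, and whether such reads were filtered afterwards is not given in the sources used here. Nearly all tracts are shorter than the reads, with 1 tract of at least the shortest read length, and the part of mapping in the results was not tested.

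Tracts were found by exact search of GRCm38 and counted as carrying a peak when at least 1 bp overlapped. Windows of 42 bp tiled the sequenced bases of the same chromosomes. Condition means were compared over the 4 libraries with a two-sided exact permutation test in Python 3.11.15 with numpy 2.4.6, pandas 2.3.3 and scipy 1.17.1, which was tested on simulated tracts and peaks. Heights were divided by the library's tags and given per 1000000. Places came from 45657 curated RefSeq transcripts of 26089 genes, and transcript starts from the same set. Named tracts were at most 6 per class, ordered by copies and position: the longest, those with ATRX or ATAC peaks in all 4 libraries, those with peaks in both libraries of a single condition, those in exons or within 1 kb of a start, and those without any peak. The members, classes and gene names were chosen with earlier results of these data known. The alternatives changed the p, the overlap, the copies, the joining of tracts, the distance from the end and the number of peaks, left out each library, and used the replicate block. The sequences of single tracts are not reported here.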

Additional observations from a re-analysis of the deposited data

How the results depend on the processing

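Each mean difference between conditions was recomputed under 15 alternatives. The ATAC difference kept its sign in all of them, between 3.43 points with runs of at least 2 copies and 13.1 points with tracts of at least 6 copies. Its exact permutation p was 0.333, the smallest possible, in every alternative that used this test. The ATRX difference also kept its sign, between 0.774 and 26.9 points, the latter with peaks of −log10 p of at least 5. Leaving out each library in turn gave 8.2 to 12.5 points for ATAC, 0.774 to 25.9 for ATRX, −10.2 to 46.4 for H3K9me3 and −29.6 to 22.4 for G4; with 3 libraries left the smallest p is 0.333. H3K9me3 reversed to −10.2 points without scramble KD replicate 1, and G4 reversed to 18.9 points without scramble KD replicate 1 and to 22.4 without TERRA KD replicate 2. Each of these settings leaves 1 library of a condition whose replicates were far apart. Leaving out chromosomes 6 and 8, or the 3 tracts of over 15 copies, both chosen after seeing the data, reversed none of the 4 differences. With the replicate block, the paired differences averaged 10.4 points in ATAC, 13.3 in ATRX, 18.1 in H3K9me3 and −3.56 in G4, the same values as without it, with exact sign-flip p of 0.5, 0.5, 0.5 and 1.0 on 2 pairs. As a check of that pairing, deviations from the condition mean over the 323 tracts correlated between libraries of the same number with an r of 0.09 in ATAC, 0.29 in ATRX, 0.32 in H3K9me3 and 0.65 in G4, and the numbers were not taken to pair the samples. The ATRX and H3K9me3 inputs of replicate 1 were the shallowest. The part of depth in the lists was not tested, and a missing peak is not an absence of signal.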
